A study of Mus musculus with 19 samples.

Results

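A total of 219 of the 35596 mouse genes in the files were at or near 0 in some vomeronasal organs of this study and well expressed in others. Estimated read counts were added up per gene and rounded, and a gene was kept when at least 3 of the 19 libraries held at most 2 counts and at least 3 held at least 100. Genes whose symbol starts with Olfr or Vmn, genes of the Y chromosome and Gm9765 were left out, which removed 7 genes. The counts themselves chose the members, so the presence of low and high libraries is a description and carries no test. A member had a median of 6 low libraries (range 3 to 16) and a median of 7 high ones (range 3 to 16). Each library lacked 58 to 101 of the members and held at least 100 counts for 52 to 114 of them.

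The vomeronasal organ (VNO) is the paired sensory tube in the nose that detects pheromones, and whole organs were taken from mice labelled female at postnatal day 21. In the AP2e line, 3 libraries came from Smad4flox/flox mice without Cre, 3 from AP2eCre +/- heterozygotes (het) and 3 from AP2eCre +/- Smad4flox/flox conditional knockouts (cKO). In the OMP line, 3 libraries came from Smad4flox/flox mice without Cre, 3 from OMPCre +/- heterozygotes and 3 from OMPCre +/- Smad4flox/flox cKO mice. The labels call the Smad4flox/flox controls wild type, and the genotype is taken from the study's methods. The floxed Smad4 alleles are thus carried by the Smad4flox/flox controls and by the cKO mice, and no label gives them to the 6 heterozygotes. AP2eCre deletes in immature basal neurons and OMPCre in all mature vomeronasal neurons, whereas the RNA came from the whole organ with its glands, vessels and surface epithelium. A further AP2e library has the title of a heterozygote and the genotype of a cKO, so it belongs to no group. It enters values taken over all libraries or by the forms of the animals' names described below, and otherwise appears as a single library. No label gives an inbred strain or a number of backcrosses, so background here stands only for the line, the genotype and the single animal. Skin and tooth genes among the members varied between animals of 1 group and did not follow a line. Some gland genes did follow a line or a genotype group, as described with their values.

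Library totals ranged from 43385516 to 134042284 estimated counts with a median of 62832257. Smad4 averaged 55.7 ± 19.04 CPM (counts per 1000000 counts of the TMM-scaled library) in AP2e cKO and 59.7 ± 4.72 CPM in OMP cKO (SD, n = 3 each). The 3 OMP cKO libraries, at 54.2 to 62.6 CPM, lay below all 6 OMP controls, at 65.2 to 84.1 CPM, whereas the AP2e cKO libraries, at 33.7 to 67.0 CPM, overlapped the AP2e controls, at 39.6 to 81.0 CPM. The summed vomeronasal neuron markers Omp, Gnao1, Gnai2 and Trpc2 reached 813 to 1340 CPM in every library. Omp averaged 237 ± 11.9 CPM in OMP het and 260 ± 24.4 CPM in OMP cKO (SD, n = 3), beside 398 ± 87.0 CPM in OMP Smad4flox/flox. A single library went against its label for sex, with 2001 counts of Ddx3y and 1667 of Eif2s3y in AP2e Smad4flox/flox library 3. The rule left 213 members without it. OMP Smad4flox/flox library 3 stood apart in its skin and muscle RNA, described with the epithelial genes, and the rule left 207 members without it. The animals' names take 2 forms, a letter with a number (12 libraries) or the line's name with a number (7 libraries), and both forms occur in each of the 6 groups. These are called the letter-named and the line-named libraries here. What set them apart is not stated in the sources used here.

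A processed pseudogene is a copy of a messenger RNA that was written back into the genome, usually far from its parent gene and without the parent's introns. Its letters are nearly those of the parent, so a short read can fit the parent and the copy equally well. Laboratory strains differ in single letters of the parent genes, in gene copy number and in which copies they carry. Read counting programs divide reads between such near-identical sequences by likelihood, and a single differing letter can decide the assignment.

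Pseudogenes made up 131 of the 219 members (59.8%), beside 639 of the 15323 genes (4.17%) that reached 100 counts in at least 3 libraries. The other 88 members were annotated as protein coding. Of the pseudogene members, 111 were processed, 15 were unprocessed, 4 were transcribed processed and 1 was a transcribed unprocessed pseudogene. A similar expressed coding gene, with at least 90% identity over at least 50% of the member's length, was found for 126 of the 131. That gene lay on another chromosome for 107 of them, and it was a ribosomal protein gene for 27. The identity to the similar gene had a median of 99.15% (range 91.74% to 100%). Of all 75-base windows, the length of the reads, a median of 60.6% per pseudogene member occurred letter for letter in another gene. For the other expressed pseudogenes this median was 69.1% (484 genes), and for the other expressed protein-coding genes it was 0 (14582 genes, of which 74.3% shared no window). The coding members fell into 33 with a near copy elsewhere, 17 that overlapped the gene they resembled, 36 with no near copy and 2 whose sequence was not used here.

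**Figure D1:**
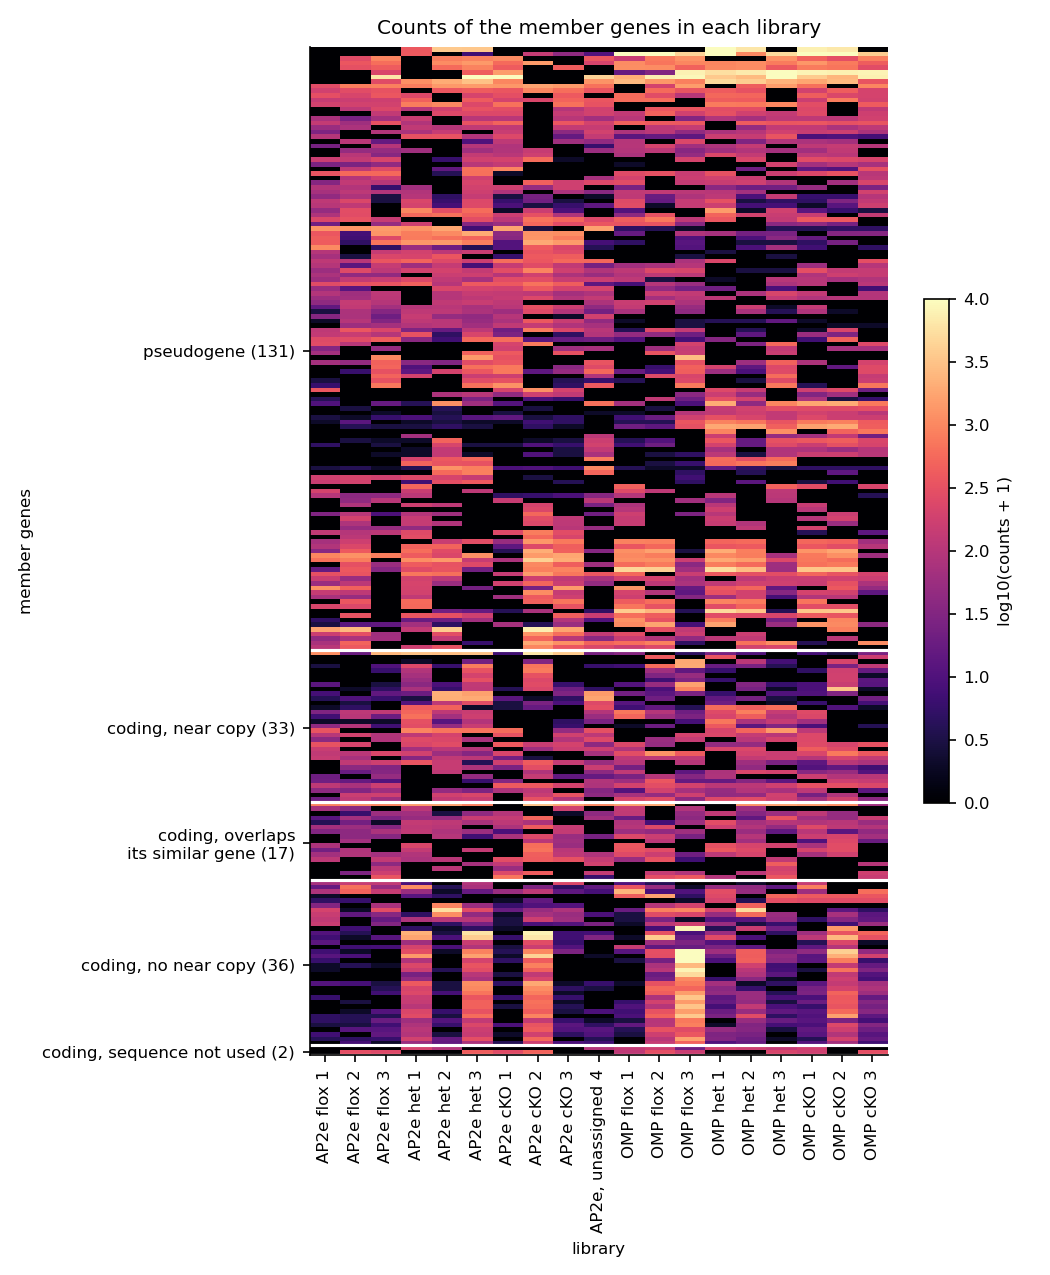
Counts of the 219 members (rows) in the 19 libraries (columns), as log10(counts + 1), with rows ordered by likeness within each kind of gene; flox stands for Smad4flox/flox. The 131 pseudogenes and the coding near copies show many separate patterns, whereas most of the 36 coding genes with no near copy are bright in the same 7 libraries.

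The following stretches show how little separates a member from the coding gene it resembles. Each is 75 bases of the coding sequence, 5′ to 3′, from the GENCODE vM21 transcripts of GRCm38, and capitals mark the bases at which a member differs from the coding gene. Positions are counted from 1 at the 5′ end of the coding gene's transcript. The ferritin light chain gene Ftl1 and its 2 members are shown at positions 647 to 721, because the copies carried counts in the OMP line. Ftl1-ps2 lies on chromosome 10 (130592157 to 130592705) and Ftl2-ps on chromosome 4 (125504288 to 125504839), and both have A654T, T655C and G721A.
Ftl1: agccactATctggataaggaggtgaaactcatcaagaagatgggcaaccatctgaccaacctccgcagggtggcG
Ftl1-ps2: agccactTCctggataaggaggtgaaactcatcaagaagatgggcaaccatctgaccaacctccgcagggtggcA
Ftl2-ps: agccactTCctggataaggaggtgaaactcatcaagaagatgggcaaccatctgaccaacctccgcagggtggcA

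The genes Ldha, for lactate dehydrogenase A (positions 365 to 439), and Btbd1, for a BTB-domain protein (positions 150 to 224), are shown for their copies. Both copies were higher in CPM in all OMPCre carriers than in the other labelled libraries, for the Ldha copy Gm5452 only narrowly. Gm5452 lies on chromosome 13 (83832340 to 83833336) and Gm14121 on chromosome 2 (150499466 to 150500845).
Ldha: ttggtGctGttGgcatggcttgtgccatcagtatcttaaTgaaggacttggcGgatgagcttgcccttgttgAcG
Gm5452: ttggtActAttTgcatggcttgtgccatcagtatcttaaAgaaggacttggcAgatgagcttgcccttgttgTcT
Btbd1: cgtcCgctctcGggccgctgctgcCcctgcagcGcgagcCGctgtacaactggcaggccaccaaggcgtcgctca
Gm14121: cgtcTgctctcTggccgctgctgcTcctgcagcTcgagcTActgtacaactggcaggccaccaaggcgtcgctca

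Rpl15, for a protein of the large ribosomal subunit (positions 299 to 373), has 4 members that rose and fell together although they lie on chromosomes 15, 2, 1 and 9. Over the aligned coding sequence, Gm10020 differs from Rpl15 at 2 bases, Rpl15-ps2 at 8, Gm8420 at 20 and Gm14094 at 28. A373G is the 1 difference that all 4 share.
Rpl15: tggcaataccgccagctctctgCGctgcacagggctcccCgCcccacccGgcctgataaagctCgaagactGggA
Gm10020: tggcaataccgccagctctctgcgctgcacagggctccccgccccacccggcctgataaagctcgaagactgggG
Gm14094: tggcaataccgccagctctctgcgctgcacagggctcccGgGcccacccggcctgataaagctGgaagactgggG
Gm8420: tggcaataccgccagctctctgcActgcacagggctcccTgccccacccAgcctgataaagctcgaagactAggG
Rpl15-ps2: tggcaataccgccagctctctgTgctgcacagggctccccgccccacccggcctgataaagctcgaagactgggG

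Rps18, Rps3a1 (proteins of the small ribosomal subunit) and Aida, an axin-interacting protein, are shown at positions 354 to 428, 727 to 801 and 481 to 555. Copies of Rps3a1 and Aida followed a line or genotype groups, and those of Rps18 reached 100 counts only in AP2e libraries. The Rps18 copies Gm10260 (chromosome 13) and Rps18-ps3 (chromosome 8) share A394C and no other difference in the coding sequence.
Rps18: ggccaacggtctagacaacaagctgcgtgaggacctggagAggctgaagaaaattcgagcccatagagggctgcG
Gm10260: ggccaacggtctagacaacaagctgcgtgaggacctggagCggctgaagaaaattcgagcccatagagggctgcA
Rps18-ps3: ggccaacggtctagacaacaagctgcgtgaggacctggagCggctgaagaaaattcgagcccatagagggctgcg
Rps3a1: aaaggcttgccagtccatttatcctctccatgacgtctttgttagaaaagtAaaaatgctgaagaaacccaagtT
Rps3a2: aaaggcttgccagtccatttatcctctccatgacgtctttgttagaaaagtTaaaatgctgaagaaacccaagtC
Aida: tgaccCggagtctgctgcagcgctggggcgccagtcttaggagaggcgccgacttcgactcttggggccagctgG
Gm16589: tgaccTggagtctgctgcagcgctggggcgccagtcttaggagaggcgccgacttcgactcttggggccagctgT

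Several copies of genes on chromosome 7 were high in the Cre carriers of the OMP line, and most of them also in OMP Smad4flox/flox library 3. Gm14121, the copy of Btbd1, held 134, 185 and 293 counts in the 3 OMP het libraries and 263, 259 and 303 counts in the 3 OMP cKO libraries. The other 13 libraries held 0 to 3 counts, so Gm14121 was high in all 6 OMPCre carriers and low everywhere else. Btbd1 lies on chromosome 7 at 16.4 Mb from Omp, the gene into which this Cre is inserted. The level of Btbd1 itself differed little between groups, from 89.4 ± 1.92 CPM in AP2e het to 94.4 ± 4.38 CPM in AP2e cKO (SD, n = 3).

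The pseudogene Gm6394, on chromosome 3, held 1887, 1657 and 466 counts in OMP het and 1627, 1946 and 451 counts in OMP cKO. OMP Smad4flox/flox libraries 1, 2 and 3 held 20, 13 and 310 counts, and the AP2e line held 0 to 4. Thus all 9 OMP libraries exceeded all AP2e libraries, and on the CPM scale the 6 OMPCre carriers exceeded every other library. Gm5452, the copy of Ldha, held 127, 170 and 130 counts in OMP het, 184, 154 and 107 counts in OMP cKO, and 1, 0 and 99 counts in OMP Smad4flox/flox. The AP2e line held 0 to 2 counts of it.

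Ftl1-ps2 held 910, 719 and 341 counts in OMP het, 749, 891 and 409 counts in OMP cKO, and 3, 3 and 355 counts in OMP Smad4flox/flox. The AP2e line held 0 to 12 counts. Gm11478, a copy of Rpl13a for a protein of the large ribosomal subunit, had the same pattern at 132 to 308 counts in the 6 OMPCre carriers and 180 counts in OMP Smad4flox/flox library 3. Ftl2-ps reached 5540 to 10352 counts in those 7 libraries, and in the AP2e line it was at 226 and 428 counts in 2 line-named libraries and at 1510 counts in the line-named AP2e cKO library 1. The genes that Ftl1-ps2, Ftl2-ps, Gm11478 and Gm5452 resemble, Ftl1, Rpl13a and Ldha, lie between 45.1 and 46.8 Mb of chromosome 7, and Ftl1 is 52.7 Mb from Omp. OMP Smad4flox/flox library 3 therefore shared the copies of the genes near 45 Mb with the OMPCre carriers, but not Gm14121.

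Counting the members that separated labelled sets of libraries without overlap in CPM put these values beside all genes that reached 100 counts in 3 libraries. Gm14121, Gm6394 and Gm5452 separated the 6 OMPCre carriers from the other 12 labelled libraries, where 0.0653% of the 15323 genes did. Rps3a2 and Gm6394 separated the lines (9 against 9), where 0.0587% of the genes did. Within the OMP line, the 6 OMPCre carriers lay above the 3 Smad4flox/flox libraries in Gm14121, Gm6394, Gm5452, Ifi44l and Gm8420, and below them in Nutf2-ps2, where 2.4% of the genes were apart. For Ifi44l this rested on 3 counts in OMP het library 2 against at most 1 count in Smad4flox/flox. For Gm5452 the lowest carrier held 1.90 CPM and the highest Smad4flox/flox library 1.84 CPM. Within the AP2e line, the 6 AP2eCre carriers lay below the Smad4flox/flox libraries in Mucl2 and Gm5514, where 2.02% of the genes were apart. Single groups stood apart in few members. Gm5514 was higher in AP2e Smad4flox/flox than in the other 15 labelled libraries (0.176% of the genes), Gm6685 lower in AP2e het (0.581%), Gm14448 higher and Gm10167 lower in OMP het (0.32%), and Gm3591 higher in OMP cKO (0.372%). No member separated the 6 AP2eCre carriers from the other 12 labelled libraries (0.117% of the genes), AP2e cKO from the other 15 (0.946%) or OMP Smad4flox/flox from the other 15 (0.215%). The rule favours genes with wide differences between libraries, so these counts do not weigh the members against other genes.

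Rps3a2 was high throughout the OMP line and at or near 0 in most of the AP2e line. The OMP libraries held 11578, 11636 and 4528 counts in Smad4flox/flox, 10882, 1033 and 5055 counts in het, and 10391, 10403 and 3815 counts in cKO. The AP2e libraries held 0, 0 and 0 counts in Smad4flox/flox, 405, 0 and 6 in het, and 0, 142 and 42 in cKO. The lines did not overlap, although OMP het library 2 lay about an order of magnitude below the other letter-named OMP libraries. Rps3a1 moved the other way, with 282 to 502 CPM in the AP2e libraries and 137 to 220 CPM in 8 of the 9 OMP libraries. In OMP het library 2, Rps3a1 held 366 CPM.

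Other copies reached 100 counts in AP2e libraries and stayed at 6 counts or fewer in the OMP line. Gm16589, the copy of Aida on chromosome 8, held 183, 211 and 178 counts in AP2e Smad4flox/flox and 253, 211 and 146 counts in AP2e het. It held 0, 2 and 0 counts in AP2e cKO, 0 in the library with conflicting labels, and 0 to 6 in the OMP line. Gm16589 was lower in AP2e cKO than in the 6 AP2e controls by edgeR's quasi-likelihood test (log2 fold change -8.76 ± 0.59 SE, adjusted p 0.000533), where 0.0378% of all genes tested were called. Aida, on chromosome 1, averaged 64.5 ± 4.61 CPM in AP2e cKO and 59.2 ± 2.53 CPM in AP2e Smad4flox/flox (SD, n = 3). Gm5514, a copy of the lactate dehydrogenase B gene Ldhb, held 1272, 1278 and 1479 counts in AP2e Smad4flox/flox, 1260, 1787 and 6 in het, and 1732, 2 and 0 in cKO. Gm3555, a copy of the kinase gene Stk38l, held 19 to 143 counts in 7 AP2e libraries, 0 and 1 in AP2e cKO libraries 2 and 3, and 0 in the OMP line. Ldhb and Stk38l both lie on chromosome 6, and both copies were absent from AP2e cKO libraries 2 and 3, whereas AP2e het library 3 lacked Gm5514 but held 44 counts of Gm3555.

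Copies of genes on chromosome 17 formed a second set of the AP2e line. Gm10260, annotated as coding and 99.08% identical to Rps18, held 1131, 17 and 2471 counts in AP2e Smad4flox/flox, 3155, 2929 and 3125 in het, and 6, 6587 and 3744 in cKO. All 9 OMP libraries were at 34 counts or fewer, as were AP2e Smad4flox/flox library 2, AP2e cKO library 1 and the library with conflicting labels, so the pattern cut across the AP2e genotypes. Rps18-ps3, Gm9825 (resembling the RNA-binding protein gene Rnps1), Atp6v0c-ps2 (resembling Atp6v0c, for a subunit of the vacuolar proton pump) and AC154457.3 (resembling the mitochondrial ribosomal gene Mrps10) held 96 to 1927 counts in the same 7 AP2e libraries and 0 to 87 in the other 12. Rps18, Rnps1, Atp6v0c and Mrps10 all lie on chromosome 17, between 24.2 and 47.4 Mb, whereas the members lie on chromosomes 13, 8, 6 and 17. In the comparison of the line controls, these 5 copies shared the direction of the AP2e line, and Gm10260 (adjusted p 0.0259), Rps18-ps3 (0.0259) and AC154457.3 (0.0291) were higher in the AP2e line by edgeR's test, where 0.095% of all genes tested were called.

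Gm4864 and AC125456.1 resemble the histone deacetylase gene Hdac1, which lies 2.8 Mb from Tfap2e, the gene that drives AP2eCre. Gm4864 held 57 to 142 counts in 8 of the 9 AP2e libraries, 0 in AP2e Smad4flox/flox library 1, and 0 to 2 in the OMP line. AC125456.1 held 31 to 383 counts in the same 8 libraries and 0 to 14 in the OMP line. Both copies were present in AP2e Smad4flox/flox libraries 2 and 3, which carry no Cre.

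A pair of copies marked the heterozygotes of both lines, the animals not labelled with floxed Smad4. Gm14448 held 489, 340 and 328 counts in AP2e het and 561, 715 and 829 counts in OMP het. All 12 Smad4flox/flox and cKO libraries held 0 to 5 counts. AC129179.3 held 202, 388 and 535 counts in AP2e het, 567, 299 and 575 counts in OMP het, and 0 in every one of the other 12 labelled libraries. Gm14448 on the X chromosome and AC129179.3 on chromosome 18 are short pieces that resemble Hmgb1, for an abundant chromatin protein. AC129179.3 lies within 20 Mb of Smad4. The library with conflicting labels held 784 counts of AC129179.3 and 0 of Gm14448. The heterozygotes and the floxed mice did not overlap in CPM for these 2 members, where 0.0848% of all 15323 genes did not.

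**Figure D2:**
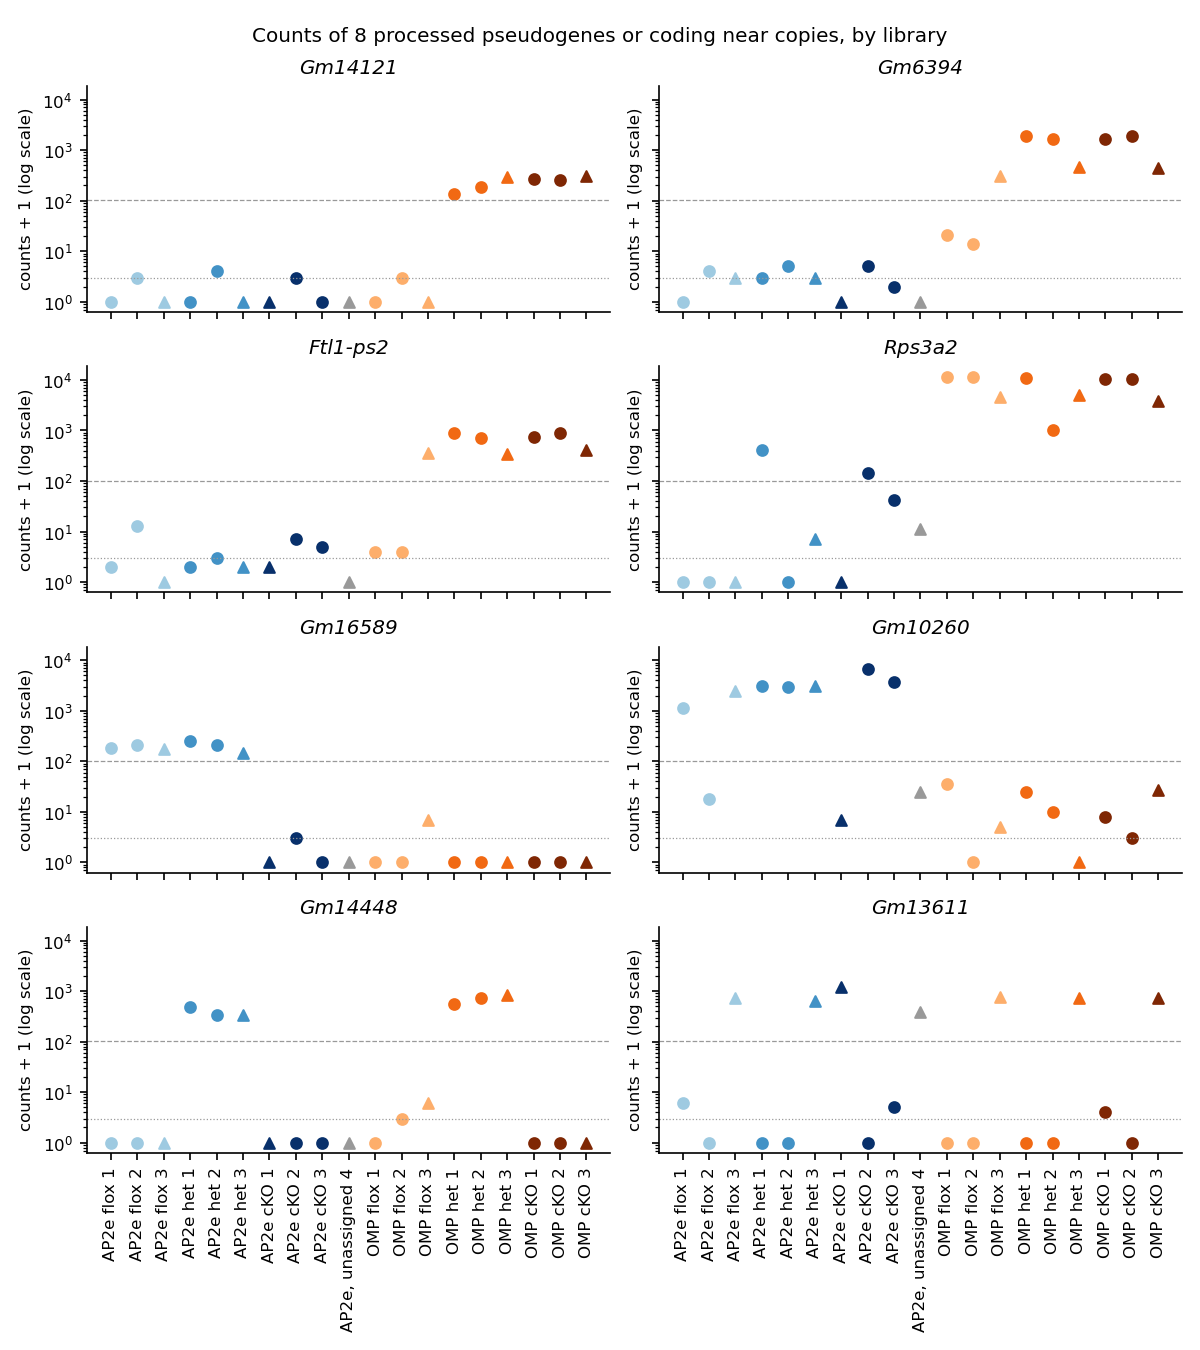
Counts + 1 on a log scale of 8 members in each library, coloured by group, with circles for letter-named and triangles for line-named libraries; the dotted and dashed lines mark 2 and 100 counts. Gm14121 is high in the 6 OMPCre carriers, Gm14448 in the 6 heterozygotes, Gm16589 in the 6 AP2e controls and Gm13611 in the 7 line-named libraries.

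The forms of the animals' names separated 7 members, 3.2% of 219, where 2.17% of the 15323 genes were separated, so this share lies near that of all genes. Gm13611, a copy of the ribosomal protein gene Rpl36, held 392 to 1198 counts in the 7 line-named libraries and 0 to 5 in the 12 letter-named ones. Gm2423 (14-3-3 gene Ywhaq), Gm9493 (ribosomal protein gene Rps7), Gm6395 (chaperone gene Dnajb6) and Gm12350 (mitochondrial protein gene Chchd2) were likewise higher in CPM in every line-named library than in any letter-named one. Their line-named libraries held 242 to 763 counts of Gm2423, 260 to 776 of Gm9493, 200 to 470 of Gm6395 and 5 to 324 of Gm12350. The letter-named ones held at most 196, 192, 81 and 3. Gm15516 (ribosomal protein gene Rpl9) and Gm4202 (14-3-3 gene Ywhaz) were lower in all 7, at 0 to 33 and 0 to 241 counts, than in the letter-named libraries, at 36 to 2122 and 594 to 4105. Rpl36 itself held 18.8 to 43.4 CPM in the line-named libraries and 53.8 to 85.2 CPM in the letter-named ones, so the coding gene and its copy moved in opposite directions.

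Members with like patterns resembled genes of the same chromosome. Across the 140 members with a similar expressed coding gene that they do not overlap, 9706 pairs had different similar genes. In 18 pairs the levels correlated at r of at least 0.95 (Pearson, log2(CPM + 1), 19 libraries), and in all 18 both similar genes lay on the same chromosome, in 16 of them within 20 Mb. None of these 18 pairs had its members on the same chromosome. Over all 9706 pairs, 5.64% had similar genes on 1 chromosome and 1.83% within 20 Mb. Between r of 0.9 and 0.95, 9 of 15 pairs had similar genes on 1 chromosome, and between 0.3 and 0.6 it was 7.15% of 1328. The pairs share members, similar genes and libraries, so they are not independent and carry no test. The 18 pairs came from 3 sets.

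**Figure D3:**
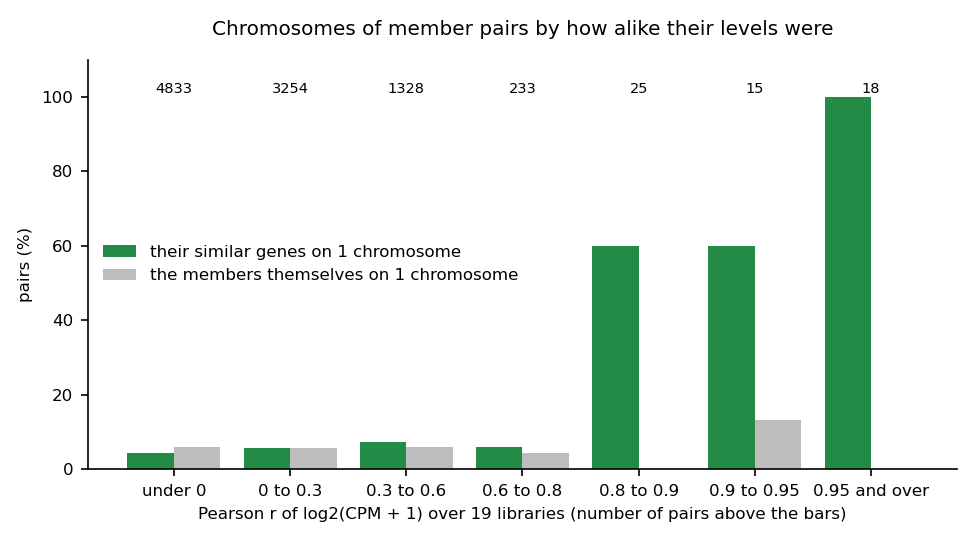
Share of member pairs whose similar coding genes (green) or whose own positions (grey) are on the same chromosome, by the correlation of their levels over the 19 libraries, with the number of pairs above the bars. The green bar reaches 100% of 18 pairs at r of 0.95 and over, where the grey bar is at 0.

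The first set comprised Ftl1-ps2, Gm11478, Gm5452 and Gm6394, and the second the chromosome 17 copies Gm10260, Rps18-ps3, Gm9825, Atp6v0c-ps2 and AC154457.3. The third held Gm12892, on chromosome 4, together with the alpha-1-antitrypsin genes Serpina1a, Serpina1c, Serpina1d and the pseudogene Gm8893 on chromosome 12. Gm12892 resembles Ckb, for brain creatine kinase, which lies 7.72 Mb from Serpina1e. Serpina1a held 2130 and 1619 counts in AP2e het libraries 2 and 3 and 1435 in the library with conflicting labels. The other 16 libraries held 0 to 30 counts. In the same 3 libraries Serpina1c held 1730 to 2069 counts, Gm12892 896 to 1284, Gm8893 506 to 896 and Serpina1d 115 to 290, and the other 16 held at most 26 of each. Serpina1 genes are a cluster of recent duplicates, and reads of one can be assigned to another.

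The 4 Rpl15 copies made a further set with 1 similar gene. Gm10020 held 2039, 42 and 979 counts in OMP het, 1778, 2021 and 764 counts in OMP cKO, and 66, 0 and 8 counts in OMP Smad4flox/flox. In the AP2e line, AP2e het library 2 held 1178 counts, the library with conflicting labels held 638, and all others held 59 or fewer. OMP het library 2 was the 1 OMPCre carrier that lacked the set. AC170187.1 resembles Nr1d2, a nuclear receptor gene 0.064 Mb from Rpl15 on chromosome 14. It correlated at 0.905 to 0.944 with the 4 Rpl15 copies. Of the 24 pairs with the same similar gene, 13 reached r of 0.95. The remaining such pair outside these sets was Gm14165 and Rplp0-ps1, on chromosomes 2 and 3, which resemble the ribosomal stalk gene Rplp0.

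Members took a large share of the reads of some families. In the 7 libraries with the Ftl1 copies, Ftl1 held 137 to 202 CPM and its 2 copies together 101 to 157 CPM, so the copies took 35.2% to 53.25% of the sum. In the other 12 libraries Ftl1 held 338 to 536 CPM and the copies at most 5.51% of the sum. Added together, Ftl1 and its copies varied less between libraries than Ftl1 alone, with a coefficient of variation of 20.5% against 41.3%. For Rps18 these values were 12.8% with the copies and 24.7% alone, and for Rps3a1 23.3% and 39.5%. The sum remained lower in the 7 Ftl1-copy libraries, at 287 to 332 CPM, than in the other 12, at 338 to 536 CPM.

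The relation was not general. Of 122 similar genes, 69 had members that took at least 10% of the summed CPM in some library. In 46 of these 69, the sum varied less than the coding gene alone, and in the other 23 it did not. The median coefficient of variation was 16.4% for the coding gene and 16.5% for the sum. The correlation of a member with its similar gene was negative for 98 of 157 members and under -0.5 for 38, with a median of -0.175 (19 libraries). A member and its similar gene can draw on the same reads, so these values are a description. For Gapdh and its copy Gm10359, the sum had the wider variation, at 45.8% against 25.2% for Gapdh alone.

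**Figure D4:**
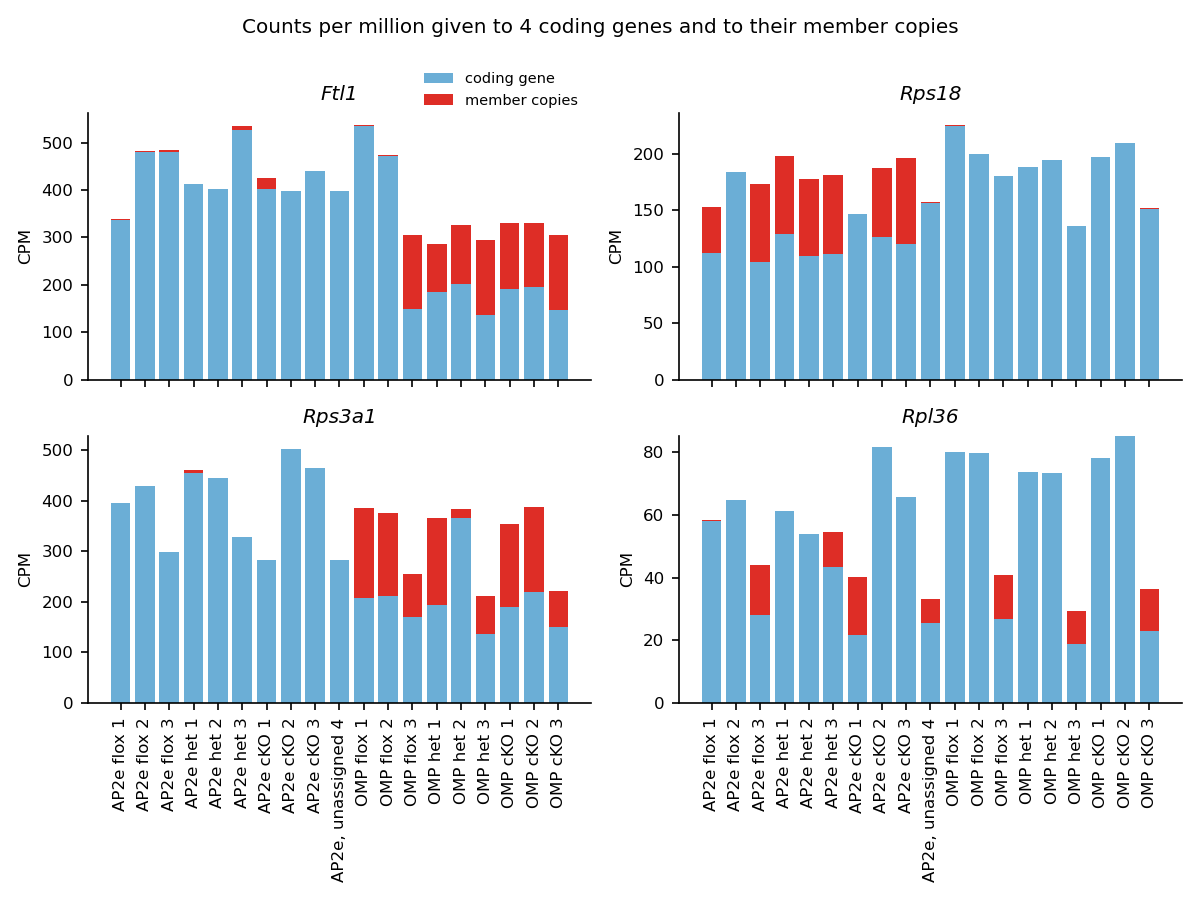
Stacked bars of the CPM given to the coding gene (blue) and to its member copies (red) in each library, for Ftl1, Rps18, Rps3a1 and Rpl36. Red appears mainly in the OMPCre carriers and 1 OMP control for Ftl1, with a small part in AP2e cKO library 1. It appears mainly in 7 AP2e libraries for Rps18, in the OMP line for Rps3a1 and in the line-named libraries for Rpl36.

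The 36 coding members with no near copy were mostly genes of surface epithelium, teeth and glands. They included keratins (Krt2, Krt24, Krt76, Krt78), proteins of the cornified envelope (Flg, filaggrin; Hrnr, Kprp, Crct1, Crnn, Sprr3), the desmogleins Dsg1a and Dsg1b, and the lipoxygenase gene Alox12b of the skin barrier. Of all 219 members, 24 correlated at r of at least 0.8 with the mean level of the squamous markers Krt1, Krt10, Krt5 and Sprr1a. They were Gsdma, Krt24, Adgrf4, Crct1, Lypd5, Klk7, Trex2, Alox12b, Calm4, Csta1, 2300002M23Rik, Sdr9c7, Hrnr, Krt78, Krt16, Lce1a1, Kprp, Dsg1b, Dsg1a, Gm94, Krtdap, Crnn, 2310046K23Rik and Flg. Krt2, Krt76, Sprr3, Defb4, Lce3a, Lce3e, Lce3f and Serpinb3a belong to the same tissue by their known roles and fell outside this limit. The share of all expressed genes at this limit is not given here, so nothing is read from the count of 24. Klk7 and Lce1a1 correlated more closely with the skeletal muscle markers (0.955 and 0.95) than with the squamous ones (0.902 and 0.839). Gsdma, Krt24, Adgrf4, Dsg1a and Flg were also over 0.8 with the muscle markers. Surface epithelium members also clustered in the genome, with 13 members, 11 of them epidermal genes, between 92.5 and 93.3 Mb of chromosome 3.

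The summed level of the 24 genes was 2064 CPM in OMP Smad4flox/flox library 3 and 217 CPM in OMP cKO library 2. It was 187 CPM in AP2e het library 3, 123 CPM in AP2e cKO library 2, 74.0 CPM in AP2e het library 1, 69.0 CPM in OMP Smad4flox/flox library 2 and 44.9 CPM in OMP het library 2. The other 12 libraries held 0.512 to 15.5 CPM, and 5 of the 6 groups had both high and low libraries. Flg held 22434 counts in OMP Smad4flox/flox library 3 and 0 to 828 in the others. Krt1 ranged from 24 counts in AP2e Smad4flox/flox library 1 to 78801 in OMP Smad4flox/flox library 3. The summed squamous markers ranged from 106 to 3904 CPM over all libraries. The same library 3 held 182 CPM of skeletal muscle markers, where the other libraries held 3.10 to 10.4 CPM. In whole organs, a smaller share of a cell type and less RNA per cell cannot be told apart.

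Tooth genes had a different set of libraries. Amelx and Enam, for the enamel proteins amelogenin and enamelin, and Dspp, for a dentin protein, are named here after their values were seen. Their summed level was 119 CPM in AP2e het library 2, 102 CPM in OMP het library 2, 26.8 CPM in OMP Smad4flox/flox library 3 and 17.6 CPM in OMP Smad4flox/flox library 2. It was 0 to 9.88 CPM in the other 15 libraries. Amelx alone held 5609 counts in AP2e het library 2, 5071 in OMP het library 2 and 0 in AP2e het library 1, OMP het library 3, OMP cKO library 1 and the library with conflicting labels.

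**Figure D5:**
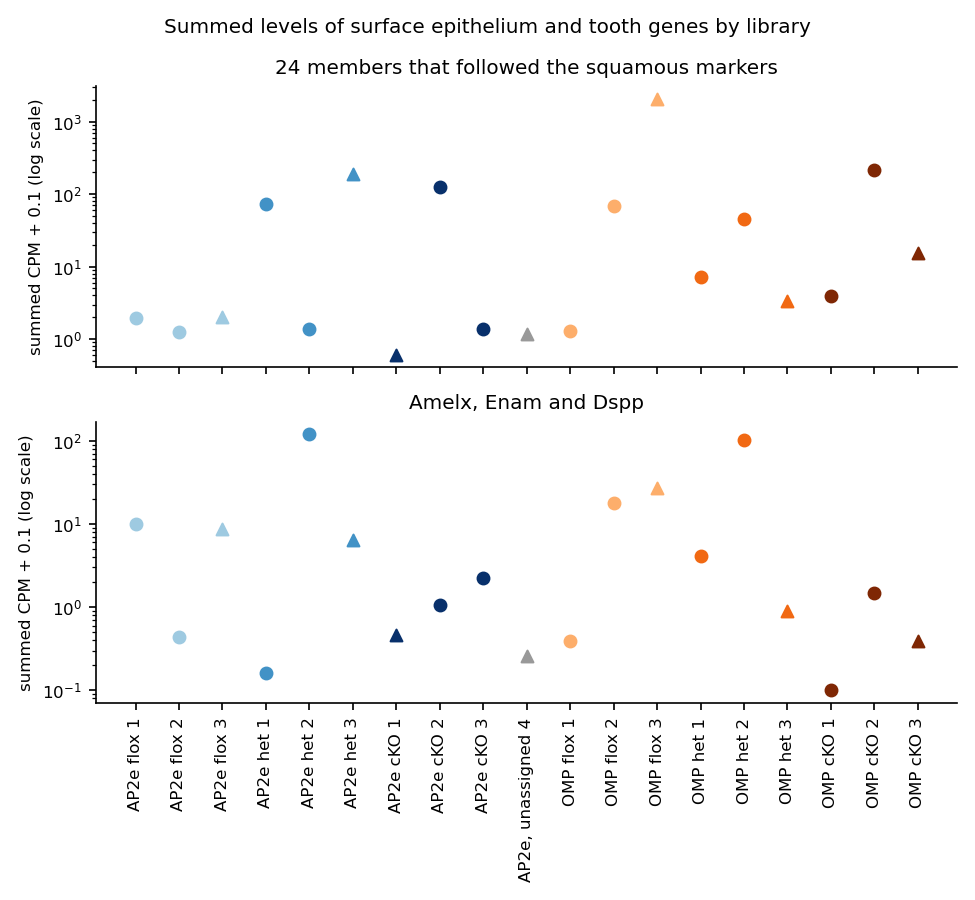
Summed CPM + 0.1 on a log scale of the 24 members that followed the squamous markers (top) and of Amelx, Enam and Dspp (bottom) in each library, coloured by group, with triangles for line-named libraries. The epithelial sum spans 0.512 to 2064 CPM and the tooth sum 0 to 119 CPM, and their highest libraries differ.

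Gland and secretion genes had yet other high libraries. Mucl2, a mucin-like gene, held 2416 counts in OMP Smad4flox/flox library 1 and 0 in OMP het library 3 and OMP cKO library 2. Crisp3, for a secretory protein of glands, ranged from 0 to 1128 counts, and the kallikrein gene Klk1b22 from 0 to 231. Lipo1 and its neighbour Gm8978 on chromosome 19, which encode lipases of secretions, were at 0 in all 3 AP2e cKO libraries and in OMP cKO libraries 2 and 3. Their other libraries held 6 to 659 counts of Lipo1 and 19 to 851 of Gm8978. Lipo1 and Gm8978 each have a near copy, so their reads can be assigned to another gene. Both were lower in AP2e cKO than in the AP2e controls without overlap, where 5.1% of all genes tested were apart in either direction, and neither passed edgeR's test (adjusted p 0.269 and 0.08). The summed gland markers Obp1a, Obp1b, Lcn3, Lcn4, Muc2 and Bpifa1 were at 17140 to 23240 CPM in AP2e cKO and at 31710 to 52600 CPM in the 6 AP2e controls. Obp1a, Obp1b, Lcn3 and Lcn4 were each apart between these groups, whereas Muc2 and Bpifa1 overlapped. The part of these markers in the values of Lipo1 and Gm8978 was not tested. Mup9, Mup-ps17, Scgb1b29 and Scgb2b17, members of the major urinary protein and secretoglobin families, reached 100 counts in 3 to 13 libraries each, and Scgb1b29 did so only in the OMP line (376, 168 and 147 counts). Vip, Ucma and Tpsab1 mark nerve fibres, cartilage and mast cells, and each reached 100 counts in 3 or 4 libraries.

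Ifi44l, Gbp2b and Gvin1, which belong to the interferon response, were named after their values were seen. Ifi44l held 203, 3 and 299 counts in OMP het and 258, 270 and 279 counts in OMP cKO, and 0 to 14 counts in all other libraries. Its neighbour Ifi44 held 344 to 2047 counts in all 19 libraries. Gbp2b, for a guanylate-binding protein that differs between inbred strains, held 423, 1678 and 4 counts in OMP Smad4flox/flox, 248, 0 and 521 in OMP het and 401, 389 and 364 in OMP cKO. The AP2e line held 0 to 11 counts of Gbp2b, while Gbp3 and Gbp2 on either side of it had at least 550 counts in every library. Gvin1, an interferon-inducible GTPase gene on chromosome 7, held 219 to 1411 counts in the 6 heterozygotes. It also held 347 counts in AP2e Smad4flox/flox library 1, 595 in AP2e cKO library 1, 310 in the library with conflicting labels and 117 in OMP cKO library 1, and 0 to 46 in the other 9. The pseudogene Gm1966 beside it was also a member. Neither Ifi44l nor Gbp2b has a near copy in this reference.

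Further genes known to differ between inbred strains were read from a list of 21, of which Gbp2b alone was a member. Wdfy1, for an endosomal adaptor protein, averaged 30.7 ± 3.95 CPM in OMP het and 70.8 ± 7.92 CPM in AP2e het, against 98.6 to 132 CPM as the mean of the other 4 groups (n = 3 each). Trim12a, an antiviral gene, held 329 to 584 counts in 9 of the 19 libraries, among them all 6 heterozygotes, and 6 to 57 in the other 10. H2-Ea-ps held at most 1 count in any library, and Entpd4b and Pisd-ps3 had no row in the files. The others (Nnt, Ifi202b, Glo1, Hbb-bs, Hbb-bt, Entpd4, Trim12c, Trim34a, Trim34b, Mx1, Mx2, Nlrp1b, Ide, Pisd-ps1 and Pisd-ps2) did not meet the rule.

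A further 17 coding members overlap the gene they resemble, so their division of reads with it is uncertain. Gm45837 overlaps the phosphodiesterase gene Pde2a and held 887 to 3098 counts in 15 libraries, 58 in OMP cKO library 3, and 0 in AP2e cKO library 1, OMP Smad4flox/flox library 3 and OMP het library 1. The others were Gm43302, Gm20390, Pagr1b, Gm27029, Gm28035, Gm28539, Gm43191, Gm42791, Gm49388, Gm49337, Gm49325, Gm49395, Gm49387, AL731706.1, Gm49416 and AC109138.7. Gm43302 reached 100 counts in more AP2e libraries and Pagr1b in more OMP libraries, by at least 4. A median of 91.4% of their 75-base windows was shared with another gene. Il11ra2 and Ccl21b, copies of an interleukin receptor and a chemokine gene, lie on the unplaced scaffold JH584293.1, and were at 0 in 8 and 9 libraries.

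By position, the members lay on the X and all 19 numbered chromosomes, with 22 each on chromosomes 3 and 7, and 2 on an unplaced scaffold. Within 20 Mb of Omp lay 5 members (2.28%) beside 1.81% of the 15323 expressed genes. Within 20 Mb of Tfap2e there were 4 (1.83% beside 2.89%), and within 20 Mb of Smad4 another 4 (1.83% beside 1.02%). The genes that members resemble lay within 20 Mb of Tfap2e for 6 of 157, of Omp for 4 and of Smad4 for 2. Expressed genes on either side of the members were on in all libraries as a rule, since 402 of 430 flanking genes held more than 2 counts in every library. For pseudogene members the level correlated little with that of the flanking genes (median r -0.0152 over 260 neighbours).

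The comparisons between groups were fitted over all genes. In AP2e cKO against the 6 AP2e controls, edgeR called 1 of the 194 members tested, Gm16589, where 0.0378% of 18495 genes were called. The summed vomeronasal neuron markers were higher in this comparison, at 1168 to 1340 CPM in AP2e cKO and 813 to 1155 CPM in the controls. Of these markers, Gnai2 alone was apart between the groups. The summed gland markers were lower, as given above. The part of either set in this call was not tested. In OMP cKO against the 6 OMP controls it called 0 of 198 members, where 0.0107% of 18608 genes were called. In that comparison 16 of the 198 members and 738 of all 18608 genes had an unadjusted p under 0.05, and DESeq2 called 4 members. In AP2e het against Smad4flox/flox, Gm14448 was the 1 of 150 members called (log2 fold change 11.35 ± 0.58 SE, adjusted p 0.0141), where 0.0224% of 17827 genes were called. In OMP het against Smad4flox/flox, 4 of 166 members were called, all higher in the heterozygotes, where 0.0441% of 18124 genes were called. They were Gm2223, identical to a stretch of the translation factor gene Eif2s3x, Gm16867, identical to a stretch of the mitochondrial iron carrier gene Slc25a37, AC129179.3 and Gm14448. The summed main olfactory neuron markers Cnga2, Gnal and Adcy3 were higher in the same comparison, at 177 to 222 CPM in OMP het and 82.2 to 118 CPM in OMP Smad4flox/flox, with all 3 genes apart between the groups. Their part in these calls was not tested. None of these 4 members was called when any 1 OMP het library was left out, and Gm14448 was not called in the AP2e line with the form of the animal's name as a covariate.

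Between the AP2e-line and OMP-line controls (6 against 6), 7 of 213 members were called, where 0.095% of 18938 genes were called. Gm16589, Gm5514, Gm10260, Rps18-ps3, Gm3555 and AC154457.3 were higher in the AP2e line, with log2 fold changes of 7.63 to 9.58, and Gm6394 was lower (-7.88 ± 1.18 SE, adjusted p 0.0291). This count rested on single libraries. It fell to 2 without AP2e Smad4flox/flox library 3, AP2e het library 2 or 3, or OMP het library 1 or 2. It was 3 without AP2e Smad4flox/flox library 1 or AP2e het library 1, and 4 without OMP Smad4flox/flox library 2. Fold changes of genes with groups at 0 depend on a small added count and are no bounds. By groups without overlap in CPM, 4 of 194 members separated AP2e cKO from its controls (5.1% of the genes tested) and 6 of 198 separated OMP cKO (2.32%). For the heterozygotes it was 18 of 150 in the AP2e line (9.78%) and 22 of 166 in the OMP line (11.6%), and 6 of 213 separated the line controls (0.486%). Because the members were chosen on the same counts, nothing is read from these shares. The fitted effects of Smad4 loss also share their controls within a line.

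The other members are named here by the line in which more of the 9 libraries reached 100 counts. Counting a difference of at least 4 libraries, 22 members favoured the AP2e line, 24 the OMP line, and 173 neither. Those not named so far that favoured the AP2e line were Alms1-ps2, Amd-ps3, Gm14292, Gm15583, Gm15975, Gm6166, Gm7809, Gm8116, Pcna-ps2, Tdg-ps, Cd300ld5 and Xlr3b. Gm14292 (resembling the RNA methylation gene Wtap) and Gm15975 (resembling Tent2) were at 2 counts or fewer in all 9 OMP libraries, whereas Amd-ps3, Gm8116 and H3f3c held at least 100 in all 9 AP2e libraries. H3f3c is among the 173 members that favoured neither line. Those that favoured the OMP line were Gm10132, Gm10335, Gm13803, Gm6768, Hist1h2al, Rpl10-ps1, Rpl17-ps10, Rps13-ps2, Gm6685 and Tes3-ps. Gm6768 and Fam177a were at 2 counts or fewer in all 9 AP2e libraries. Rps13-ps2, Rpl10-ps1, Rpl35a-ps3, Gm10175 and Gm6685 held at least 100 counts in all 9 OMP libraries. Fam177a, Rpl35a-ps3 and Gm10175 are also among the 173 that favoured neither line. Gm6685, a near copy of Cyb5d1, was at 0 in the 3 AP2e het libraries and at 76 to 397 counts in the other 16 libraries.

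The remaining pseudogenes varied within both lines. Copies of ribosomal protein genes among them were Gm12013, Gm13532, Gm13740, Rpl17-ps5, Rpl19-ps10, Rpl9-ps4, Rps15a-ps5 and Rps26-ps1. Copies of other genes were AC116841.1, Ear-ps2, Gm10167, Gm10651, Gm10705, Gm11336, Gm12291, Gm13123, Gm13414, Gm13461, Gm13552, Gm14017, Gm14387, Gm14519, Gm14719, Gm15267, Gm16089, Gm17748, Gm18562, Gm21182, Gm2436, Gm2446, Gm30970, Gm43712, Gm4459, Gm44911, Gm5417, Gm5812, Gm5855, Gm5931, Gm6361, Gm6457, Gm6594, Gm6969, Gm7332, Gm7367, Gm7816, Gm7993, Gm8121, Gm8983, Gm9726, Gm9762, Gm9791, Gm9800, Gm9923, Gng5-ps, Hsp25-ps1, Itpa-ps1, Nudc-ps1, Pgk1-rs7, Rab11b-ps2, Rbm3-ps, Rbpj-ps3, Selenok-ps8, Tcea1-ps1 and Zxda. Gm28438 and Gm10222, on chromosome 1, resemble the mitochondrial genes mt-Nd3 and mt-Nd4l. Gm5583 and Gm4073 resemble the vomeronasal receptor gene Vmn2r30, and no similar coding gene was found for Gm1966, Gm16510, Nutf2-ps2, Gm48113 and Gm18234. Coding near copies not named so far were Gm8882, Zfp935, Hist1h2br, Cd300ld3, Gm14434, Gm9268, Gm4214, Fam205a3, Gm3591 and Gm3417.

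At the limits of the rule, AC170187.1, Gm3555 and Gm14719 were the members whose count ranked 3 from the top was lowest (101, 102 and 103), and CT030642.2 and Gm14308 at 99 stayed outside. In all, this count was under 120 for 22 members, and 38 genes lay just outside at 80 to 99. The count ranked 3 from the bottom was 0 for 199 members, 1 for 13 and 2 for 7, and 6 genes with a value of 3 were outside. Among these were Gm8730, with 8862 counts at rank 3 from the top, and Serpina1b at 468.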

How the data were processed

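RNA of whole vomeronasal organs had been sequenced as single-end 75-base reads from stranded poly(A) libraries. The authors quantified transcripts with Salmon 0.14.0, per the submitters' processing notes, which also name DESeq2 1.22.2. The deposited files give an estimated count (NumReads) and TPM for 116248 transcripts in each of 19 libraries, plus transcript lengths, which were used with TPM only for length-scaled counts. TPM values as deposited are scaled to the same sum in every library and served only as an alternative. Nothing says that mice of 1 group came from separate litters.

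Estimated counts were summed per gene (GENCODE vM21, GRCm38), rounded, and scaled to CPM (counts per 1000000 counts of the TMM-scaled library). At most 0.0324% of a library's counts belonged to the 176 transcripts without a gene. Totals of 43385516 to 134042284 make 2 and 100 counts different levels in different libraries. Similar genes were found by BLAST 2.17.0 (at least 90% identity over at least 50% of the member, and a median of at least 100 counts), and sharing by exact 75-base windows.

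Groups were compared with edgeR 4.0.16 (quasi-likelihood test, filterByExpr, Benjamini-Hochberg over all genes tested, adjusted p under 0.05) in R 4.3.3, tested first on simulated data. The control comparison between lines had the kind of control as a covariate. Alternatives were DESeq2 1.42.0, its size factors, no filter on low counts, length-scaled counts, a replicate block, the form of the animal's name as a covariate, other limits of the rule, and each library left out. Other steps used Python 3.11.15. Replicate numbers were not used to pair samples.

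Members and gene lists were chosen with earlier results of these data known. Every member is named. Members that follow a line, a genotype or the names of the libraries, or that belong to sets with r of at least 0.95, were chosen for values, given per library for leading members and as ranges or set sums for others. Tooth and gland members were grouped after their values were seen. The library with conflicting labels entered the rule, the values taken over all libraries and the separation by the form of the names. It entered no comparison between genotype groups or lines. A gene that 1 member resembles is not reported here.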

Additional observations from a re-analysis of the deposited data

Results flagged for a closer look

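Transcripts of the Y chromosome, which the rule leaves out, appeared in libraries labelled female. AP2e Smad4flox/flox library 3 held 2001 counts of Ddx3y and 1667 of Eif2s3y. OMP het library 2 held 24 and 25 counts, and OMP cKO library 3 held 8 counts of Ddx3y. OMP cKO library 3 held 3 counts of Eif2s3y, and the other 16 libraries held 0 of both genes. Kdm5d held 1380 and Uty 1430 counts in AP2e Smad4flox/flox library 3, and 142 to 458 and 3 to 182 counts in the other 18 libraries. The cause was not tested.

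The AP2e library with conflicting labels enters no comparison between genotype groups or lines. It held at least 100 counts for 55 members and at most 2 for 93. It was high for 6 members that were at 2 counts or fewer in all 3 AP2e Smad4flox/flox libraries. These were AC129179.3 (784 counts), Gm8893 (506), Serpina1d (253), Gm8420 (162), AC170187.1 (131) and Gm4459 (113).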

How the results depend on the processing

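The rule gave 379 members with a high limit of 50 counts, 137 with 200 counts, and 341 with 2 low and 2 high libraries, against 219. The other limits and scalings gave 146 to 239 members, leaving out the library with conflicting labels gave 202, and leaving out each other library in turn gave 198 to 214. DESeq2 called more members than edgeR throughout, at 15 against 1 for AP2e cKO, 4 against 0 for OMP cKO, 19 against 1 for AP2e het, 16 against 4 for OMP het and 21 against 7 between the line controls. Over all genes DESeq2 called 317, 46, 177, 147 and 143, where edgeR called 7, 2, 4, 8 and 18. Without the filter on low counts, edgeR called 2 members for AP2e cKO and 3 for AP2e het, among 8 genes called in each. Length-scaled counts left 1 member of 3 genes for OMP het, and the form of the animal's name as a covariate left 0 of 2 for AP2e het. The cause of these shifts was not tested.

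With the replicate number as a block, edgeR called 3 members for AP2e het, 0 for OMP het and 2 between the line controls, and left AP2e cKO at 1 and OMP cKO at 0. Over all genes the block gave 5, 2, 8, 2 and 0 in that order. The deviations of same-numbered samples correlated between -0.339 and 0.206 in the AP2e line and between 0.036 and 0.565 in the OMP line, where the 3 het and cKO pairs exceeded 0.1 (0.265, 0.215 and 0.565) and 2 of the other 6 did not. Not every OMP library correlated best with its own number, and number 3 is the line-named library in each OMP group, so the number also carries the form of the name. The numbers were therefore not taken as pairs. Leaving out 1 library at a time gave 1 to 2 members called for AP2e cKO, 0 to 0 for OMP cKO, 1 to 11 for AP2e het, 0 to 6 for OMP het and 2 to 9 between the line controls. Over all genes these ranges were 2 to 8, 0 to 2, 3 to 28, 0 to 15 and 4 to 23. The 11 came without AP2e het library 2. The lowest value for OMP het, 0, came without any 1 of its 3 het libraries.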
